A study of Glycine max with 4 samples.

Results

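Dense windows are stretches of 10 kb on 1 strand of the soybean genome that hold 100 or more transcription start positions. They were selected on the pooled signal of the 4 libraries, by cutting each of the 20 sequences of the assembly into fixed windows per strand and counting the positions with any signal in root or shoot. Of 61979 windows with at least 1 start position, 452 (0.729%) reached 100. The samples were 2 root and 2 shoot libraries of Williams 82, the soybean cultivar used as the reference of the species, numbered 1 and 2 within each tissue. The plants were 2 weeks old and had been kept in white light of 300 µmol per m2 and s, with 12 h of light alternating with 12 h of darkness. All groups shared genotype, age and light and differed in tissue alone, roots against shoots. The labels do not say whether the libraries of a tissue came from separate plants, so p-values measure the spread between these libraries, which may be technical.

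NanoCAGE captures the 5′ ends of capped RNA, so a sequenced tag marks a base at which a capped RNA begins. Promoters are known to differ in how precisely they set that base: some use a single dominant position, others spread initiation over a broad stretch. CAGE data of many organisms also hold scattered tags inside transcribed genes, where a tag need not mark a promoter. A window becomes dense through a broad start region, through several start regions, or through scattered tags. The windows below are described by the layout of their tags, which need not tell these apart. The files carry no gene models, and no genome or annotation of their assembly was used here, so windows are named by sequence, strand and position and whether they overlap coding sequence was not analysed here.

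Tags per library were available for sequences 1 to 12 and part of sequence 13, with 1000476 and 874004 tags in the root libraries and 901261 and 655935 in the shoot libraries. They covered 313 of the 452 dense windows. The other 139 have only 1 pooled value per tissue, in TPM (the authors' scaled unit), and so have no replicate check.

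The dense windows made up a small part of the genome but a larger part of the signal. They held 72939 start positions, 10.2% of the 711688 in the table, with 15.8% of all TPM in root and 25.4% in shoot. They lay on both strands, 218 on plus and 234 on minus, and on every sequence, from 15 windows on sequences 1 and 19 to 35 on sequence 8. The median window held 128.5 positions (quartiles 112.75 and 167), and the highest number was 915. These numbers describe the selection and carry no test. Just inside the limit, 7 windows had 100 positions and a summed root and shoot signal of 44.2 to 2454 TPM. Just outside it, 17 windows had 99 positions and 49.4 to 1110 TPM.

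Some dense windows were among the strongest windows and others were weak. Of the 50 windows with the highest TPM 25 were dense, and of the 1000 highest 250 were. The median dense window had 89.95 TPM in root, with a range from 0 to 9774, and 141.9 TPM in shoot, with a range from 0.984 to 7635. Below 10 TPM there were 55 windows in root and 19 in shoot, and 5 windows had no root signal at all.

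Strong windows that were not dense had narrower clusters. There were 635 windows with under 100 positions but a TPM at or above the dense median. Their strongest cluster had a median width of 78 bp, and their most used position held 47.7% of the TPM at the median. In the dense windows these medians were 156 bp and 18.3%. Dense windows thus spread their tags over more bases, which the rule itself favours. Positions inside them were also less often single tags: 48.5% had 1 tag in all, against 66.4% of positions elsewhere. Of their positions 26.9% were used in both tissues, against 17.9% elsewhere. Windows with more positions also had more TPM (Spearman's rho 0.965 over all windows, but 0.269 over the dense windows alone). The part of signal level in these shares was not tested.

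**Figure D1:**
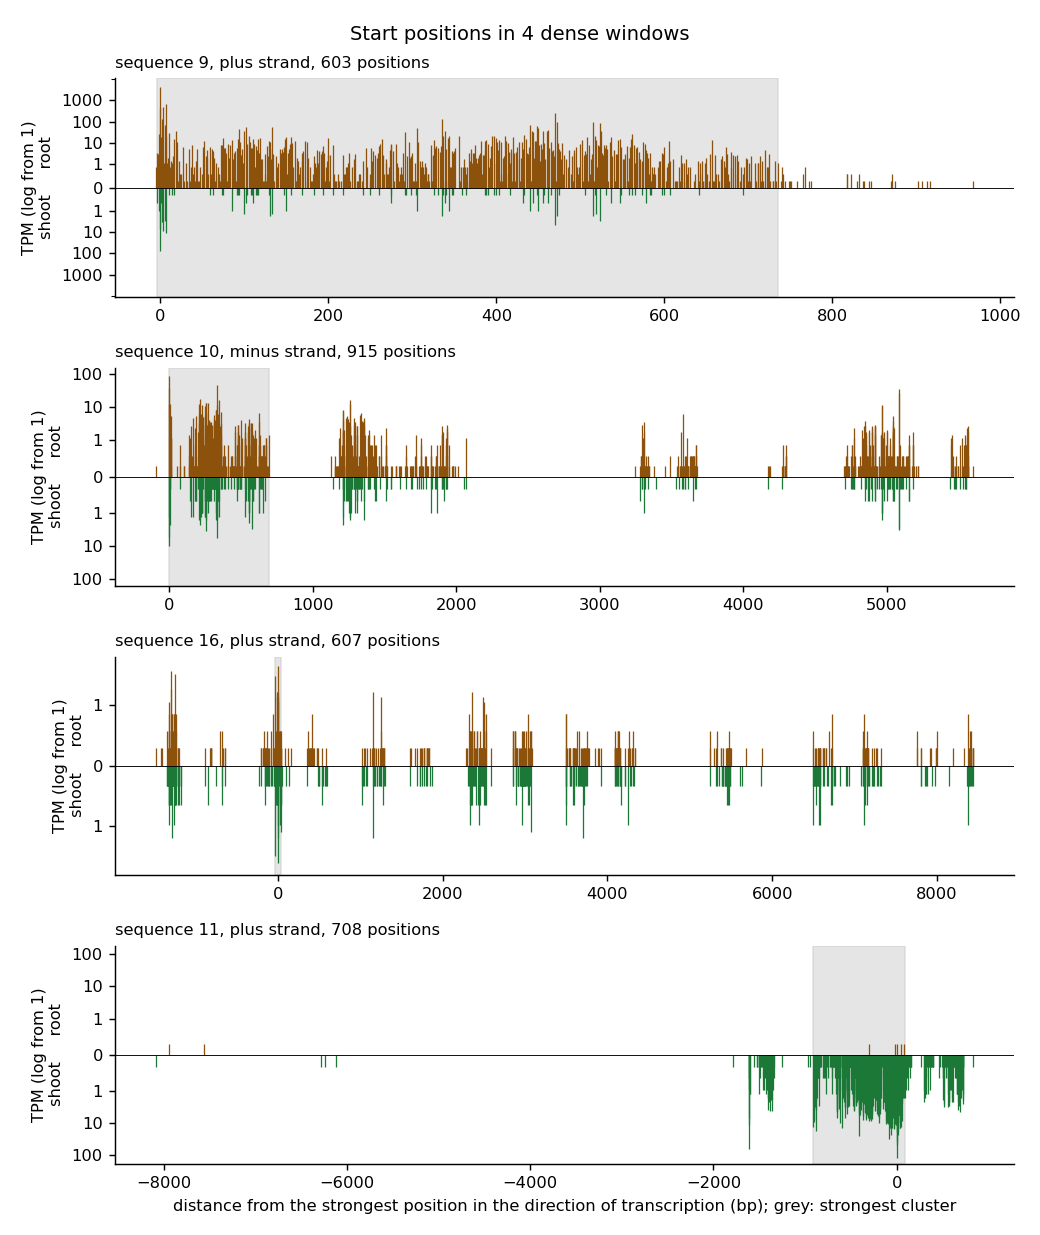
Start positions in 4 of the 8 windows with most positions; the horizontal axis is distance from the strongest position along transcription (bp), root TPM points up and shoot TPM points down on an axis that is linear to 1 TPM and logarithmic beyond. The sequence 9 window is a single block of 740 bp, the sequence 10 window has further blocks downstream, the sequence 16 window has many low blocks, and the sequence 11 window is almost empty on the root side, with 2.00 TPM.

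The 8 windows with most positions differed in form and in tissue. The most crowded lay at 54980000 to 54989999 on the minus strand of sequence 10, with 915 positions. Its 4 libraries held 2776 and 1672 tags in root and 392 and 166 in shoot, or 2677 and 1815 against 501 and 309 CPM (counts scaled to a common library size). Both root libraries were above both shoot libraries. The fitted log2 difference, shoot minus root, was -2.47 ± 0.35 (SE; quasi-likelihood test of edgeR, Benjamini-Hochberg adjusted over all windows, adjusted p = 0.000393). The strongest cluster spanned 54987560 to 54988257 (698 bp) and held 55.3% of the TPM. All 915 positions fell into 6 runs along 5695 bp, where a run is a series of 5 or more positions with no gap above 100 bp. Each of the 6 runs was used in both tissues. Outside the strongest cluster lay 43.4% and 46.9% of the root tags and 43.9% and 46.4% of the shoot tags. The window therefore had less signal in shoot, with the tags divided between the cluster and the rest in ranges that overlapped between tissues.

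On the plus strand of sequence 1, the window 1770000 to 1779999 held 763 positions. It had 1489 and 1925 CPM in root and 6239 and 5923 CPM in shoot, so the shoot libraries were higher throughout (log2 difference 1.83 ± 0.31 SE, adjusted p = 0.00109 in edgeR). Its positions formed 2 runs 2597 bp apart, the strongest cluster of 924 bp and 265 positions upstream of it. The sequence 11 window from 7480000 to 7489999 on plus, with 708 positions, was nearly a shoot window: its tags numbered 5 and 2 in root and 3110 and 2348 in shoot. Its log2 difference was 10.13 ± 0.47 SE (edgeR, adjusted p = 2.06e-06), and 10.79 without root replicate 1. The strongest cluster there was 1004 bp wide and used 520 of its bases.

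The remaining crowded windows with counts were root windows. On the minus strand of sequence 8, the window 49810000 to 49819999 (668 positions) had 844 and 873 tags in root against 89 and 6 in shoot. The shoot libraries were far apart and both below the root libraries. The log2 difference was -3.74 ± 0.66 SE (edgeR, adjusted p = 0.00138), -6.29 with shoot replicate 1 left out and -2.90 with shoot replicate 2 left out. On the minus strand of sequence 10, the window 49310000 to 49319999 (583 positions) had 2205 and 874 tags in root against 72 and 25 in shoot, a log2 difference of -4.44 ± 0.49 SE (edgeR, adjusted p = 9.37e-05). It was -3.75 without root replicate 1 and -5.05 without shoot replicate 1. Of its positions 233 lay upstream of the strongest cluster and 40 downstream.

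The window 12730000 to 12739999 on the plus strand of sequence 9 (603 positions) had the highest TPM of all dense windows, 9774 in root and 166 in shoot. Its libraries held 18726 and 15742 CPM in root and 612 and 65.1 in shoot. Both shoot libraries were far below root, and the shoot libraries differed several-fold between themselves. The log2 difference was -5.65 ± 0.89 SE (edgeR, adjusted p = 0.000743), with -8.05 when shoot replicate 1 was left out and -4.77 when shoot replicate 2 was. This window had a single long cluster, from 12733167 to 12733906, which used 573 of its 740 bases and held 99.9% of the TPM. Position 12733171 alone held 45.2%. It lies beside the upstream edge of the cluster, so nearly all other positions of the cluster lay downstream of it. Whether those positions mark a broad start region or scattered tags was not tested.

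For the windows of the group that lay beyond the count table only pooled TPM can be given. The window 50860000 to 50869999 on the minus strand of sequence 20 (587 positions) had 376 TPM in root and 419 in shoot, with 49.1% in a cluster of 441 bp and 46.2% upstream of it. The sequence 16 window from 7120000 to 7129999 on plus (607 positions) had 170 and 152 TPM, and only 12.6% in its strongest cluster. It belongs to a long stretch of weak starts that is described below.

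Most of the signal of a dense window came from 1 tag cluster. A cluster here is an interval from the authors' root or shoot list, and the strongest is the one with most TPM in the window, both tissues summed. At the median it held 77.0% of root TPM (quartiles 50.02 and 95.5) and 80.6% of shoot TPM (54.5 and 96.1). Per library, over the windows with counts, the medians were 80.2% and 79.8% in root and 83.3% and 83.5% in shoot. In the 2054 windows with 50 to 99 positions, of which 2029 had a listed cluster, the median over both tissues was 83.4%, against 81.2% in the dense windows. In the 635 strong windows that were not dense it was 98.4%. The dense windows thus lay close to windows with somewhat fewer positions and less TPM, and below windows of high TPM, in this share. The cluster was wider in dense windows than in those with 50 to 99 positions, 156 against 83 bp at the median. The typical strongest cluster used 61 start positions, 40.9% of its bases.

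The windows ranged from single long clusters to fields of weak starts. In 171 windows the strongest cluster held 90% or more of the TPM. Its median width there was 210 bp and the median window had 788 TPM. In 92 windows it held under 50%, with a median width of 75.5 bp and a median window of 105 TPM. The 189 windows between lay between them in both measures, with 148 bp and 229 TPM. Clusters of 500 bp or more led 28 windows, and 8 of these used 50% or more of their bases. At the other end, 18 windows were led by clusters of 10 bp or less.

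The 3 windows with the highest shares had nearly all of their signal in long clusters, in part because a cluster was cut by the window's edge. On sequence 2 minus, 7250000 to 7259999, all 399 positions lay in 1 cluster of 929 bp that reaches the window's edge, as does the cluster in 45610000 to 45619999 on sequence 10 plus (99.97% of the TPM). In 10 kb windows centred on the strongest position, 137 further positions with 33.0% of the TPM lay downstream in the former and 159 with 10.2% in the latter. The sequence 5 window 34430000 to 34439999 on plus held 7635 TPM in shoot and 22.4 in root, with 99.95% in a cluster of 861 bp and 77.9% at a single base. The 3 lowest shares were 6.10% (sequence 17 minus, 6110000 to 6119999), 7.14% (sequence 14 plus, 18670000 to 18679999) and 9.09% (sequence 16 plus, 7130000 to 7139999). In the first of these the strongest cluster was a single base and 109 of 115 positions lay downstream of it. Those 3 windows had 26.0 to 66.1 TPM in root and 30.8 to 58.1 in shoot and were not covered by counts.

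Outside the strongest cluster, starts lay downstream of it more often than upstream. Of all positions 49.0% (35749) were inside the strongest clusters, 34.5% (25187) downstream in the direction of transcription and 16.5% (12003) upstream. More positions lay downstream in 312 windows and upstream in 135, with 5 ties. When a 10 kb window was centred on the strongest position instead, the counts were 307 and 142, so the direction was the same. This check kept the windows chosen on the fixed grid and the clusters clipped at its edges. The median window had 5391.5 bp of room downstream and 4398.5 bp upstream. The same excess was present in windows with 50 to 99 positions, where 39.5% of positions lay downstream and 16.1% upstream. It is thus shared with less crowded windows.

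By signal, the downstream side held a median of 76.5% (root) and 81.8% (shoot) of the TPM outside the strongest cluster. The quartiles were wide, 24.3 and 96.7 in root and 31.0 and 96.8 in shoot. In centred windows the medians were 67.3% and 75.3%. Windows with 50 to 99 positions had similar medians, 76.5% in root and 78.3% in shoot. Downstream tags lay a median of 578 bp from the strongest position, and the farthest 2356 bp away at the median. Upstream tags lay closer, with 213.5 and 708.5 bp. The density fell steeply with distance: the first 250 bp downstream held 50.4 positions per window and the next 250 bp 15.1, against 34.5 and 7.02 on the upstream side. Between 1000 and 1250 bp the numbers were 4.88 downstream and 1.61 upstream.

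**Figure D2:**
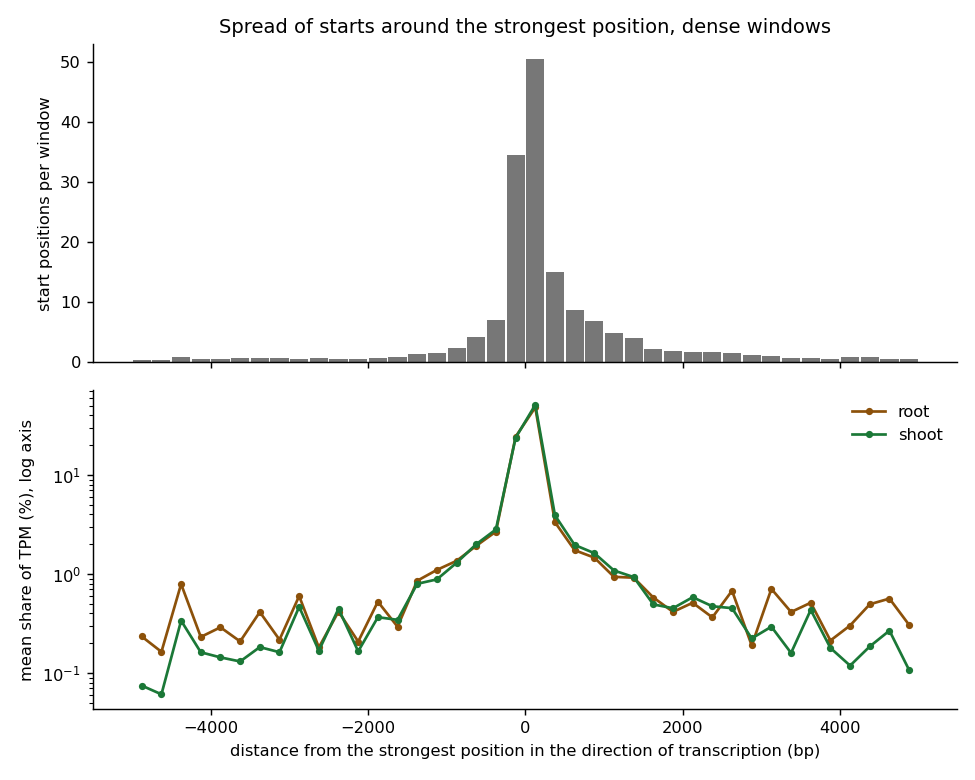
Start positions per dense window (top) and mean share of TPM in percent on a log axis (bottom, root and shoot) in bins of 250 bp, by distance from the strongest position along transcription. Both panels peak at the centre and decline more slowly downstream, with 15.1 positions per window from 250 to 500 bp downstream against 7.02 at the same distance upstream.

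The start positions of a window, strongest cluster included, could be divided into runs. The median window had 3 runs, 77 windows had 1, 58 had 5 or more, and the highest number was 15. Of 1314 runs in all, 1143 (87.0%) were used in both tissues. A run counts as used in a tissue when at least 1 of its positions has any signal there. A single tag is enough for this, so the share does not mean like levels. A run of 5 or more positions has many tags, and the share is a description of those that reach this size.

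The longest series of adjoining dense windows was a stretch of 3 adjoining windows on the plus strand of sequence 16. Between 7112553 and 7139735 lay 1267 start positions along 27183 bp, in 35 runs. The runs had a median length of 247 bp and were separated by a median gap of 406.5 bp. All 35 were used in both tissues. The stretch had 392 TPM in root and 344 in shoot, and no single position exceeded 5.16 TPM in root or 4.86 in shoot. The 3 windows held 418, 607 and 242 positions. Among 9 stretches of adjoining dense windows it was the only one of 3 windows. Whether this stretch is 1 gene or several was not analysed here.

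The other stretches joined 2 windows each and differed in form. On sequence 10 plus, the cluster that reached a window's edge was part of a single run of 1263 bp, from 45619596 to 45620858, with 308 positions and 1174 TPM in root against 63.7 in shoot. On sequence 16 minus, 562 positions lay between 35020220 and 35031165 in 2 long runs of 725 and 1291 bp, separated by 8930 bp. The other extreme was a stretch on sequence 12 plus from 41395359 to 41404178, where 259 positions fell into 11 runs with a median length of 179 bp. On sequence 20 minus, 979 positions between 50862130 and 50871455 formed 8 runs, all used in both tissues, with 878 TPM in root and 941 in shoot.

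Positions in the strongest clusters recurred between libraries more than those outside. In the windows with counts, 63.1% of the positions that root replicate 1 used inside strongest clusters were also used in root replicate 2, and they carried 94.7% of its tags there. Outside the clusters 29.6% recurred, with 57.0% of the tags. In shoot, 58.2% of the replicate 1 positions recurred in replicate 2 inside the clusters and 27.1% outside. Across tissues, 50.1% of the root replicate 1 positions inside clusters and 22.9% outside were also used in shoot replicate 1. Positions inside clusters carry more tags each and so recur more readily, and the part of depth in these shares was not tested.

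Root and shoot were compared on tags per window, over every window with enough tags on the covered sequences. Calls were more frequent among dense windows than among all tested windows, and more of them were higher in shoot. The way the windows were selected favours such calls (next paragraph). Of 9275 windows tested, 4576 were called (49.3%), 2508 higher in shoot (27.0%) and 2068 higher in root (22.3%). All 313 covered dense windows were tested, and 186 (59.4%) were called, 121 (38.7%) higher in shoot and 65 (20.8%) higher in root. The median log2 difference was 0.34 in dense windows and 0.02 in all tested windows, and the former was 0.34 too with windows at 0 tags set to their bound (below). The dense windows that differed by more than 8-fold numbered 64 with shoot and 27 with root as the higher tissue. The like count over all tested windows is not given here, so these numbers describe the dense windows alone. Windows were called at an adjusted p below 0.05 in the quasi-likelihood test of edgeR, and 5149 passed 0.05 unadjusted.

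The rule touches this comparison, because a tissue with more tags also shows more positions. By their root or their shoot positions alone, 79 windows reached 100 in root only, 120 in shoot only, 78 in each tissue and 175 in neither. Among those tested, the shoot-only windows gave 74 of 78 calls higher in shoot and none higher in root, and the root-only windows 37 of 57 higher in root and none higher in shoot, as the way they qualified favours. The windows that were dense in each tissue gave 11 higher in shoot and 7 higher in root of 52, with a median log2 difference of 0.31. Those dense in neither alone gave 36 and 21 of 126, with a median of 0.15. In each of these last groups the share called was below the 49.3% of all tested windows. The higher share among dense windows thus came from those dense in root only or in shoot only.

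The split by direction depended on scaling. With library totals in place of the trimmed mean of M values (TMM), 184 dense windows were called, 100 in shoot and 84 in root, and over all windows 22.9% were called higher in shoot and 30.3% higher in root. The TMM factors were 1.11 and 1.13 for root and 0.920 and 0.866 for shoot. The shoot share of dense calls was then 54.3%, against 65.1% with TMM. For all windows it was 43.0%, against 54.8%. The median log2 difference of all tested windows moved to -0.30 and that of dense windows to 0.01. Such a scaling shifts all windows alike. Of the 186 called dense windows 143 were called under all 9 alternatives, and 0 changed direction in any of them. In 1 called window, sequence 5 plus from 40150000, the libraries of the tissues overlapped (985 and 194 CPM in root, 215 and 151 in shoot).

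**Figure D3:**
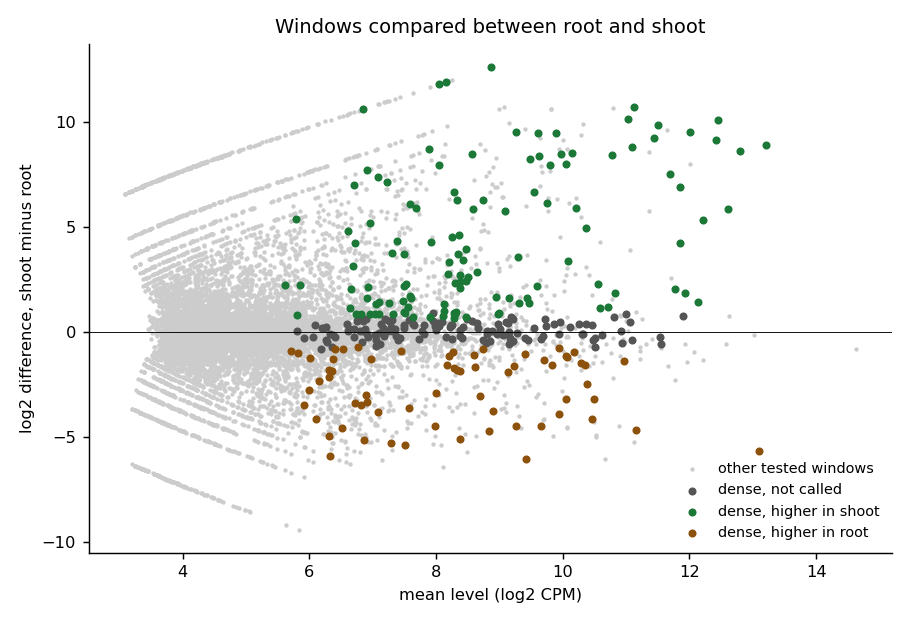
Log2 difference between shoot and root against mean level in log2 CPM for the 9275 windows tested, with the 313 dense windows in colour by call. Of the dense windows 64 lay above 8-fold on the shoot side and 27 on the root side, with no like count over all tested windows given. Fitted values of windows with 0 tags in a tissue, along the outermost curves, depend on a small added count and are not measured folds.

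The 3 windows with the largest fitted shoot differences had no root tag at all, so their folds are known only as lower bounds. On sequence 10 plus, 45320000 to 45329999, the libraries held 0 and 0 tags in root and 460 and 699 in shoot. Both root libraries were empty there, and 3 counts in both together were taken as the floor. The shoot level was 573 times this floor, the bound used here. The lower limit of the exact binomial interval at 95%, which counts the error of the shoot tags too, was 465. The bound was 849 with shoot replicate 1 left out and 384 with shoot replicate 2 left out, or 270 and 303 when root replicate 1 or 2 was left out and the floor fell on 1 library. The adjusted p was 1.24e-05 in edgeR. Floors and intervals cover counting error only, because without molecular identifiers several reads can stem from 1 molecule.

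Similar values came from 15320000 to 15329999 on sequence 10 minus, with 0 and 0 root tags and 439 and 319 shoot tags. Its bound was 375 and its lower interval limit 304 (edgeR, adjusted p = 2.18e-06). On sequence 3 plus, 38370000 to 38379999 had 0 and 0 root tags and 395 and 302 shoot tags. The bound there was 345 and the lower interval limit 280 (edgeR, adjusted p = 2.36e-06). Leaving out root replicate 1 or 2 puts the bounds at 176 and 198 in the former window and at 162 and 182 in the latter. On sequence 4 plus, 5450000 to 5459999 had 1 and 4 root tags against 3165 and 2643 shoot tags, a log2 difference of 10.69 ± 0.54 SE (edgeR, adjusted p = 2.06e-06), 9.95 without root replicate 1 and 11.92 without root replicate 2. These shoot windows differed in form. The sequence 4 window had 98.4% of its TPM in 1 cluster of 334 bp. The sequence 10 minus window had 43.7% in a cluster of 53 bp and 199 positions downstream, and the sequence 3 window had 53.0% in its cluster and 153 positions upstream.

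The 4 windows with the largest fitted root differences all had shoot tags. On sequence 9 plus, 12880000 to 12889999 held 2370 and 347 tags in root and 21 and 6 in shoot, or 2285 and 377 against 26.8 and 11.2 CPM. The root libraries were above the shoot libraries but several-fold apart. The log2 difference was -6.05 ± 0.87 SE (edgeR, adjusted p = 0.000455), and it was -4.22 without root replicate 1, -6.87 without root replicate 2 and -6.90 without shoot replicate 1. On sequence 11 plus, 10150000 to 10159999 held 145 and 139 tags in root and 2 and 1 in shoot. Its root libraries agreed closely, and the pooled ratio of root to shoot was 63.8 (exact binomial interval at 95%, 21.6 to 311; edgeR, adjusted p = 8.63e-06).

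On sequence 9 minus, 29750000 to 29759999 held 459 and 226 tags in root and 11 and 0 in shoot, a log2 difference of -5.38 ± 0.64 SE (edgeR, adjusted p = 0.000153). It was -4.56 when shoot replicate 2 was left out and -11.17 when shoot replicate 1 was, where no shoot tag was left and the value is no measured fold. The window at 12730000 on sequence 9, given above, was the other of these 4. Across the 65 dense windows higher in root, shoot replicate 1 had more CPM than shoot replicate 2 in 52, with a median log2 ratio of 0.43. Across the 127 windows not called it did so in 67, with a median of 0.01. The part of this difference between the shoot libraries in the calls was not tested. Dense calls higher in root numbered 57 without shoot replicate 1 and 47 without shoot replicate 2, fits in which the lone shoot library is assumed to vary like the root libraries.

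Some dense windows had nearly the same level in root and shoot. On sequence 13 plus, 25600000 to 25609999 had 677 and 457 CPM in root and 484 and 643 in shoot, overlapping between tissues, with a log2 difference of -0.01 ± 0.28 SE (edgeR, adjusted p = 0.981). On sequence 6 plus, 5230000 to 5239999 had 145 and 150 CPM in root and 151 and 151 in shoot, a difference of 0.03 ± 0.23 SE (edgeR, adjusted p = 0.917). On sequence 9 minus, 2510000 to 2519999 had 105 and 117 in root and 111 and 117 in shoot, a difference of 0.04 ± 0.24 SE (edgeR, adjusted p = 0.913). These were picked for their small differences, whose signs changed with the scaling or the library left out, and a p that misses the threshold does not show equal levels.

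A dense window has a strongest cluster and a rest, and the next question was whether these change together between tissues. In most windows no difference between them was detected. Over the 310 windows with 10 or more tags in each of cluster and rest, the log2 ratios of shoot to root tags of the cluster and of the rest had the same sign in 265 and were correlated across windows (Pearson's r 0.872, Spearman's rho 0.884). This is a description over windows that share the same 4 libraries, with 0.5 tags added to each sum. The tags were not scaled to library size, so the sign of small ratios depends in part on depth. In a test of the share outside the strongest cluster over all 2137 windows with enough tags (edgeR's diffSpliceDGE, Benjamini-Hochberg adjustment at 0.05), 230 were called (10.8%), 147 with more outside in root (6.88%) and 83 with more outside in shoot (3.88%). Of 280 dense windows tested 27 were called (9.64%), 21 with more outside in root and 6 in shoot. The share called over all windows depended more on the setting than that of dense windows: 225 of 12902 windows and 25 of 312 dense ones were called with no count filter, 98 of 2932 and 21 of 284 without shoot replicate 1, and 98 of 3320 and 20 of 290 without shoot replicate 2. The strongest cluster was defined on both tissues summed, so the tissue with more tags largely sets which cluster it is. This can favour 1 direction of calls, and 21 of the 27 windows had a higher level in shoot. How far the direction of the calls follows from the definition was not tested.

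**Figure D4:**
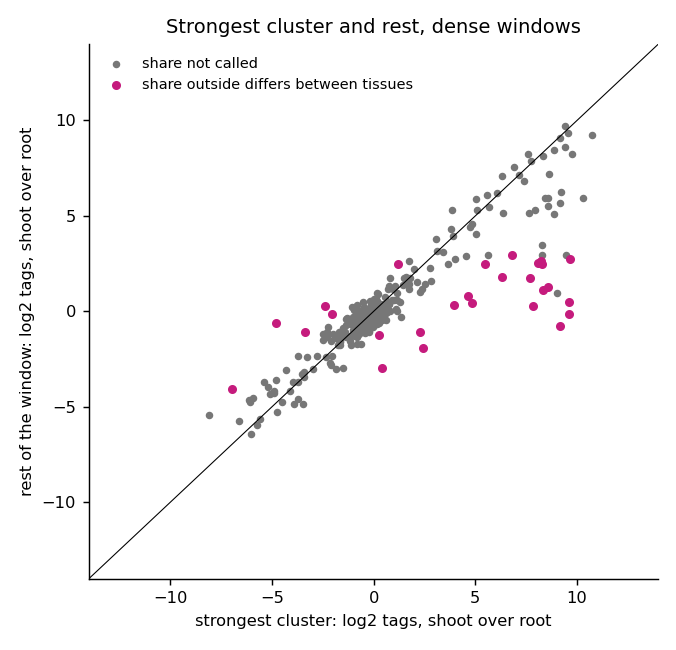
Log2 ratio of shoot to root tags in the rest of the window (vertical) against the same ratio in the strongest cluster (horizontal) for 310 dense windows; the line marks equal ratios, and windows whose share outside differed between tissues are in colour. Most windows lie along the line (same sign in 265, with tags not scaled to library size), and the 27 called windows lie off it.

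The called windows were mainly those whose rest lay far away. In 22 of the 27, the rest lay at a median of 1 kb or more from the strongest position, on the side with more TPM, and the median of that distance was 3052 bp. Among the 253 not called, 104 had a rest that far away, and the median distance was 812 bp. The median difference of the share outside was 3.88 percentage points in the windows not called.

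In the windows with the largest changes, most shoot tags lay in 1 cluster and most root tags several kb away. The tags several kb away came from both tissues. On sequence 8 plus, 44710000 to 44719999, the share outside the strongest cluster was 96.4% and 94.4% in root and 2.83% and 1.90% in shoot, so the tissues did not overlap (edgeR's diffSpliceDGE, adjusted p = 1.69e-09). The cluster, from 44710095 to 44710243, had nearly all of the 8060 and 7742 shoot tags, while most of the 251 and 177 root tags lay downstream of it. Outside the cluster lay 242 and 167 root tags and 228 and 147 shoot tags, so the tissues differed mainly inside it. The median distance of the downstream signal, both tissues summed, was 6209 bp. In a 10 kb window centred on the cluster, which leaves those root tags out, the cluster held 100% of root TPM and 99.4% of shoot TPM. On sequence 2 plus, 52610000 to 52619999, the share outside was 100% and 97.3% in root and 8.23% and 6.27% in shoot (diffSpliceDGE, adjusted p = 7.32e-08), with the rest around 4729 bp downstream. That rest held 122 and 71 root tags and 75 and 39 shoot tags. When all listed clusters of the window were counted together against tags outside them, the adjusted p there was 0.113.

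In the opposite direction, the minus-strand window 4010000 to 4019999 on sequence 11 had 18.7% and 32.1% outside in root and 83.0% and 88.1% in shoot (diffSpliceDGE, adjusted p = 1.66e-05, and 0.0776 with all clusters counted together). Its strongest cluster is cut by the window's downstream edge and the rest lies 9538 bp upstream, at the other end. In a 10 kb window centred on the strongest position the cluster held 94.4% of root TPM and 86.9% of shoot TPM, so most of this change rests on the fixed grid. On sequence 12 plus, 4180000 to 4189999 had 27.9% and 20.5% outside in root and 63.2% and 100% in shoot (diffSpliceDGE, adjusted p = 0.0191). Only 19 and 6 shoot tags stand behind the latter pair, and the adjusted p was 0.164 without shoot replicate 2 and 0.475 with all clusters together. The sequence 1 window at 1770000, with the second highest number of positions, had 2.85% and 5.07% outside in root and 9.20% and 9.54% in shoot (diffSpliceDGE, adjusted p = 0.0305). The log2 change of the rest over the cluster was 1.28. The adjusted p was 0.0898 with no count filter, 0.230 without shoot replicate 1 and 0.277 without shoot replicate 2, where the change was 1.28, 1.31 and 1.25. It was 0.470 with all clusters together and 0.203 without root replicate 1, where the change was 0.77 and 0.95.

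A further pattern, chosen after its values were seen, concerned the spacing of start positions. Within dense windows, pairs of positions lay at distances that are multiples of 3 bases slightly more often than at the distances beside them. Over distances from 6 to 60 bp, such pairs were 1.058 times as frequent as the mean of the neighbouring distances. The ratio was 1.049 inside strongest clusters and 1.087 outside. In the 4 libraries taken alone it was 1.072 and 1.073 in root and 1.091 and 1.096 in shoot, and outside the clusters 1.11 and 1.11 in root and 1.15 and 1.15 in shoot. These ratios pool the pairs of all windows, so windows with many pairs weigh most. Outside the clusters, among windows with 200 or more pairs, 38 of 50 and 36 of 48 had a ratio above 1 in the root libraries. In the shoot libraries 37 of 63 and 21 of 40 did, with median window ratios of 1.044 and 1.008. The pooled ratio was 1.019 in windows with 50 to 99 positions and 1.011 in those with fewer. Of the 452 windows 317 had a ratio above 1, with a median of 1.02. These values carry no test.

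**Figure D5:**
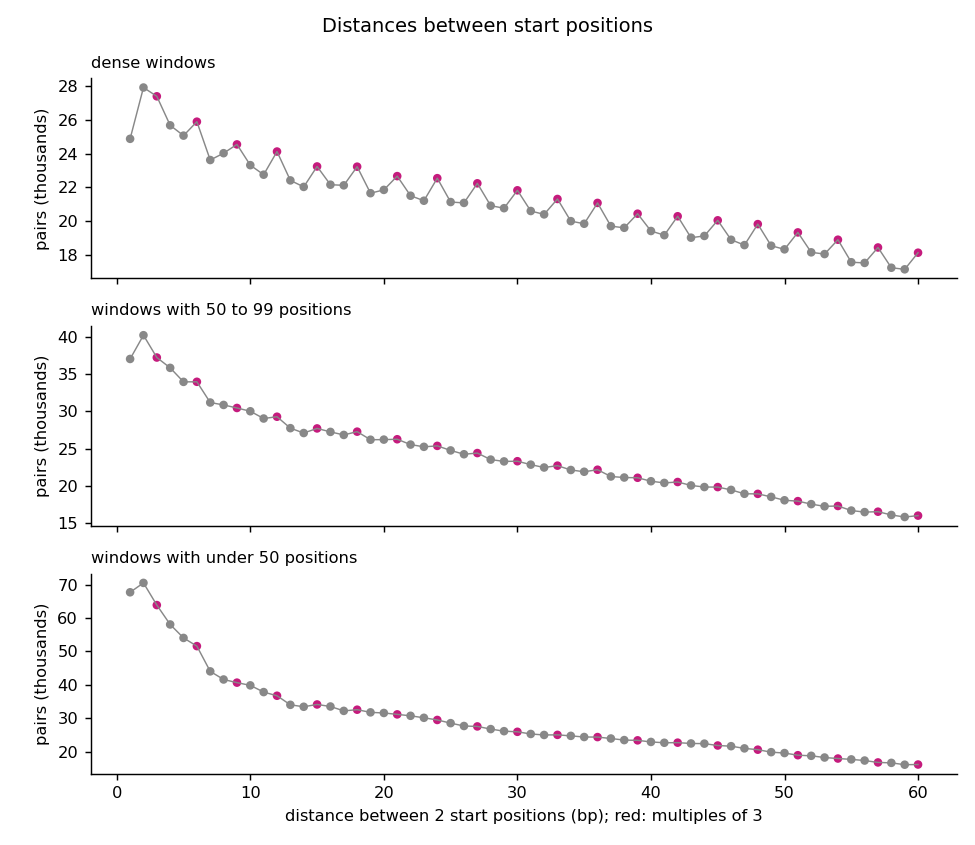
Number of pairs of start positions, in units of 1000 pairs, by the distance between them in bp, with multiples of 3 in red, for windows with 100 or more, 50 to 99 and under 50 positions. The red points stand above their neighbours in dense windows, where the ratio is 1.058, and hardly do so in the other sets, at 1.019 and 1.011.

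The windows described next were picked for the highest ratios over all their positions, a choice that also favours like frames in the libraries of a window. On sequence 7 minus, 44780000 to 44789999 (142 positions, 2 and 0 tags in root, 194 and 130 in shoot), the ratio was 2.29. Sorted by position into 3 frames, its starts fell 66.2%, 28.2% and 5.63% into them. The frame that shoot replicate 1 favoured also held 65.8% of the 38 positions that only shoot replicate 2 used, and the reverse gave 60.3% of 58. On sequence 17 plus, 2490000 to 2499999 (218 positions) had a ratio of 1.86 and 61.9%, 29.8% and 8.26% in the frames, and the frame favoured in root held 63.0% of the 184 positions used in shoot alone. On sequence 6 plus, 51850000 to 51859999 (1.74) had 58.1% of 86 positions and 50.7% of 71 in the frame that the other shoot library favoured.

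In the shoot window at 45320000 on sequence 10 plus (1.55), 55.6% of the starts were in 1 frame, and 48.6% of 144 and 52.8% of 72 positions held by only 1 shoot library followed the other library. Sequence 20 minus from 47490000 had a ratio of 1.91 and sequence 11 minus from 21150000 had 1.59. These windows were mostly used in shoot, with 0 to 12.6 TPM in root, apart from the sequence 11 window with 47.8 TPM in root and 56.9 in shoot. Over all dense windows with 30 or more positions on each side, the carried share was close to the 33.3% of an even split, from 35.2% to 36.1% between root libraries and 36.1% to 36.4% between shoot libraries. From root to shoot it was 35.5%, and from shoot to root 36.0%. More than 50% of starts in 1 frame were seen in 9 windows, and more than 40% in 125. These counts take the fullest frame of each window, whose share cannot fall below 33.3% and had a median of 38.1%. The share that starts without a preferred frame would reach by this choice was not computed. The counts therefore do not show a preference. Whether the spacing follows the reading frame of coding sequence was not analysed here.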

How the data were processed

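The members and lists were chosen with earlier results of these data known. The deposited counts are whole tags per start position in each library, per the file headers, and were read up to position 31697699 on the minus strand of sequence 13, where 1 broken line was left out. The deposited TPM table and cluster lists give 1 value per tissue, made by the authors from the pooled replicates, in TPM per the file headers. The smallest TPM values, 0.286 in root and 0.329 in shoot, were read as 1 tag. The sources used here do not state the aligner or how reads with several matches were treated, so windows in near-identical gene copies are uncertain. Coordinates are those of the deposited files, and clusters were clipped at window edges.

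Tags were summed per 10 kb window and strand and tested with edgeR 4.0.16 in R 4.3.3 (filterByExpr, TMM, quasi-likelihood test, tissue as the only term). Shares outside the strongest cluster were tested with diffSpliceDGE on 2 features per window. Both tests were checked on simulated data. DESeq2 1.42.0, RLE size factors, library totals, no count filter, a replicate block, other window grids and limits, and leaving out each library were the alternatives. Named windows were the 8 with most positions, the 3 with the highest and lowest cluster share, the 4 with the largest fold per direction, the 3 with the smallest, and the 2 largest share changes per direction.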

Additional observations from a re-analysis of the deposited data

How the results depend on the processing

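The number of dense windows follows the limit: 822 with 80 or more positions, 145 with 150 or more, and 77 when only positions of 2 or more tags count, while a grid shifted by 5 kb gave 475. DESeq2 called 2921 windows and 154 dense ones. Leaving out a library gave 3513 to 4701 called windows and 154 to 190 dense ones. For the share outside the strongest cluster, counting all listed clusters together left 66 calls, 12 of them dense windows, and leaving out a library gave 98 to 202 calls (98 without shoot replicate 1 and 98 without shoot replicate 2) and 20 to 29 dense ones. The numbers 1 and 2 were not shown to pair libraries across tissues (correlation of their deviations -0.0463 over 9275 windows). With a replicate block, 4467 windows and 188 dense ones were called for level, and 193 and 27 for share.

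The median share in the strongest cluster was 87.8% in root and 88.9% in shoot without positions of 1 tag, 78.1% and 81.4% on the shifted grid, 77.6% and 80.96% in centred windows, 77.3% and 82.0% from tags, and 79.8% to 80.2% and 83.3% to 83.5% with a library left out. The median downstream share of the rest was 84.0% and 80% without 1-tag positions, 75.4% and 83.6% on the shifted grid, 67.3% and 75.3% in centred windows, 75.2% and 82.8% from tags, and 75% to 80% and 82.5% to 82.6% with a library left out. The 3-base ratio, with alternatives chosen after seeing the data, was 1.06 in root, 1.07 in shoot, 1.08 at positions of 2 or more tags and 1.06 without the 20 most crowded windows.

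The direction changed only in the 3 windows named for their small differences, among named windows: in that on sequence 13 the log2 difference was 0.0026 with the replicate block, 0.29 without root replicate 1, -0.31 without root replicate 2 and 0.17 without shoot replicate 1; in that on sequence 6 it was -0.0039 with RLE, -0.29 with library totals, -0.056 with DESeq2 and -0.068 without a filter; in that on sequence 9 it was -0.00049, -0.29, -0.052 and -0.065 in these settings, with -0.049 without root replicate 1 and 0.075 without root replicate 2. The cause was not tested. Depth limits windows with few tags in a tissue, where shares outside the cluster rest on single counts, and 33 dense windows had too few tags for the share test.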

Other observations

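Most dense windows had no dense neighbour on their strand, where dense windows were 0.729% of all windows. Whether they adjoin more or less often than that share gives was not tested. There were 10 pairs of adjoining dense windows on a strand, and 1 place was dense on both strands, at 7390000 to 7399999 on sequence 16, with 133 positions on the plus strand and 117 on the minus strand. The strand opposite a dense window held a median of 2 start positions, and 126 windows had none opposite them.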
